A study of Mus musculus with 4 samples.

Results

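The receptor genes through which sympathetic ganglia could read hormones from fat and from the rest of metabolism were examined in T1–T4 ganglia, the thoracic ganglia that supply interscapular brown fat. A list of 9 mouse genes was matched by symbol, namely *Lepr*, *Insr*, *Igf1r*, *Adipor1*, *Adipor2*, *Erbb4*, *Fgfr1*, *Klb* and *Il6st*. Of these, 8 were listed in all 4 tables, out of 17667 genes listed in at least 1 table and 15275 listed in all 4. *Erbb4* had no row in any table. Ganglia came from C57BL/6 mice aged 12 weeks after 1 day at 5 °C, and RNA from several mice was pooled into each library. The 4 libraries were WT library 1, WT library 2, a library labelled TRKC+/- (1 functional copy of the gene for TRKC, the receptor of neurotrophin NT-3) and an AdNTF3-Tg library. In AdNTF3-Tg mice the adiponectin promoter drives NT-3 in adipocytes. Each mutant group was thus 1 pooled library, and the series holds a WT control for each mutant cohort. The sample labels do not give the cohort of either WT library, so each mutant library was set against both, and a cohort difference cannot be told apart from the spread between the WT libraries.

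Leptin binds LEPR, a cytokine receptor whose long form signals through JAK2 and STAT3. Adiponectin binds ADIPOR1 and ADIPOR2, insulin and IGF-1 bind the related tyrosine kinases INSR and IGF1R, and FGF21 binds FGFR1 together with its co-receptor β-Klotho, the product of *Klb*. ERBB4 is a receptor for neuregulins, including the brown fat product NRG4, and *Il6st* encodes gp130, the signalling chain shared by the receptors for IL-6, LIF and CNTF. In sympathetic neurons, LIF and CNTF acting through gp130 are known to shift neuropeptide and transmitter genes, and insulin-like factors are known to support neuron survival and axon growth.

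Values are given as FPKM, which is the read count scaled to gene length and library reads and may be compared between genes, and as estimated read counts, called reads here. Reads on genes summed to between 8665955 and 8894985 per library. The ganglion identity was plain in every library: all 8 sympathetic neuron markers were listed, with *Th* between 2576 and 2753 FPKM and *Dbh* between 2100 and 2170 FPKM. Markers of satellite glia and Schwann cells (6 of 6), adipocytes (6 of 6), fibroblasts (4 of 4), endothelium (4 of 4), macrophages (4 of 4) and skeletal muscle (5 of 5) were listed in all libraries too, so a receptor's reads cannot be assigned to neurons. In such bulk tissue, fewer cells of a type and less RNA per cell cannot be told apart. The targeted gene *Ntrk3*, which encodes TRKC, had 91 reads in the library labelled TRKC+/- against 78 and 83 in WT libraries 1 and 2, and 76 in AdNTF3-Tg. It was thus not lower in the library labelled TRKC+/-, and the part of the gene that the allele alters is not given in the sources used here, so a count over the whole gene may not see it. The study itself reported this gene, there named *Trkc*, to be reduced in ganglia of TRKC+/- mice. With so few reads in 1 pooled library, the counts here are no check of the label.

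Of the receptors with at least 50 reads in each library, the one with the widest range was *Lepr* (Entrez 16847, chromosome 4, 101390009 to 101487957 on NCBIM37, plus strand). *Lepr* also had the fewest reads of them, between 58.69 and 93.27 per library, so counting error weighs most on it. The next lowest, *Igf1r*, had between 379 and 414 reads. *Lepr* is described first for its range. Its transcripts differ at the coding end, and the annotation holds 3 complete coding forms that share their first 2667 coding bases. The coding ends are shown because the tables name 3 *Lepr* transcripts and give a length that depends on how reads were divided among them. Each line holds the last 30 shared bases in lower case and then the bases particular to that form in capitals, from GENCODE on NCBIM37, 5′ to 3′ on the plus strand.
Lepr-001: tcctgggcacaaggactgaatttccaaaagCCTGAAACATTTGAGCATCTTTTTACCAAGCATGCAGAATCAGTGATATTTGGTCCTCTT
Lepr-002: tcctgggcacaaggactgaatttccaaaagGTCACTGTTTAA
Lepr-004: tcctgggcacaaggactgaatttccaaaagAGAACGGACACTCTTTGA
The first is the long signalling form, with 1162 amino acids, of which the first 60 of its 822 own coding bases are printed, and its last exon is chr4:101487053-101487957. The form Lepr-002 ends after 3 amino acids of its own (892 in all), in an exon at chr4:101464600-101464863. Lepr-004, a short form with 5 amino acids of its own (894 in all), ends in an exon at chr4:101483953-101486272 that also holds a long untranslated stretch, so that its transcript is 5542 bases long against 4127 for the long form and 3410 for Lepr-002.

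In the tables the *Lepr* length was 5571 bases in both WT library 2 and AdNTF3-Tg, 5529.75 in the library labelled TRKC+/- and 5498.02 in WT library 1. The highest of these values exceeds all 3 GENCODE forms, so the tables rest on other transcript models, and the length cannot be assigned to a form. With fewer than 100 reads per library, no share of each form is given, and the *Lepr* values below cover the long and short forms together.

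*Lepr* had 90.37 reads (1.91 FPKM) in WT library 1, 93.27 reads (1.91 FPKM) in WT library 2, 84.79 reads (1.74 FPKM) in the library labelled TRKC+/- and 58.69 reads (1.21 FPKM) in AdNTF3-Tg. AdNTF3-Tg was below all the others, and the WT libraries lay on each other. Fitted with edgeR's quasi-likelihood test, in which the lone mutant libraries are assumed to vary like the WT pair, the log2 fold change of *Lepr* in AdNTF3-Tg against WT was -0.63 (SE 0.256, 95% interval -1.23 to -0.04, unadjusted p = 0.0391), and it did not pass the test after Benjamini-Hochberg adjustment over 14156 genes (adjusted p = 0.817). In the library labelled TRKC+/- it was -0.13 (SE 0.242, -0.69 to 0.43, edgeR adjusted p = 0.999), and AdNTF3-Tg against the library labelled TRKC+/- gave -0.50 (SE 0.292, -1.18 to 0.17, edgeR adjusted p = 0.940). The exact 95% counting interval of the read ratio, which compares libraries and covers counting error only, ran from -1.13 to -0.14 for AdNTF3-Tg over WT library 1 and from -1.15 to -0.16 over WT library 2, on the log2 scale. The corresponding WT library 1 over WT library 2 interval was -0.45 to 0.42.

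By a cutoff of 0.5 on the log2 FPKM ratio (0.1 added to each value, which understates low genes), *Lepr* was the 1 receptor of the 8 that was lower in AdNTF3-Tg against both WT libraries, at -0.62 against each. With 1 added to each FPKM value in place of 0.1 its ratio averaged -0.40 and 0 receptors were past the cutoff. Of all genes listed in 4 tables, 3.58% were lower by this rule and 2.12% higher (5.7% in all), and of the 11365 genes averaging 50 reads or more, 0.634% were lower. The latter set includes genes with far more reads than *Lepr*, so 0.634% is not the share among genes with as few reads. None of the 8 was past the cutoff in the library labelled TRKC+/-, where 1.78% of all genes were higher, 2.49% lower and 4.27% either. Within single pairs of libraries the share of all genes past 0.5 was 13.9% and 13.3% for AdNTF3-Tg over WT libraries 1 and 2 (1 receptor each), 13.1% for AdNTF3-Tg over the library labelled TRKC+/- (0 receptors), 10.7% and 12.7% for the library labelled TRKC+/- over WT libraries 1 and 2 (0 receptors each), and 13.4% between the WT libraries (0 receptors). The counting interval excluded 0 in these pairs for 25.9%, 20.7%, 22.3%, 14.2%, 19.8% and 20.5% of all genes, in the same order, and for 2, 2, 1, 0, 2 and 2 receptors. Among cell type markers, the adipocyte list summed to 326.9 FPKM in WT library 1, 298.4 in WT library 2, 168.1 for the library labelled TRKC+/- and 233.1 in AdNTF3-Tg, with *Ucp1* at 655, 672, 110 and 525 reads in that order. *Ucp1*, the brown fat uncoupling protein, was the 1 gene that passed edgeR's test in the library labelled TRKC+/-, where it fell by 2.62 on the log2 scale (adjusted p = 0.00205). That call was lost without the filter on low counts (0 genes called, smallest adjusted p = 0.972) and with limma (0 genes called, smallest adjusted p = 0.0717). The adipocyte sum is carried by *Fabp4* and *Ucp1*, both lowest in the library labelled TRKC+/-. Both were also below both WT libraries in AdNTF3-Tg, where *Fabp4* had 879 reads against 1260 in WT library 1 and 1149 in WT library 2. *Plin1*, a lipid droplet coat gene, had 6.17 and 5.86 FPKM in WT, 5.25 in the library labelled TRKC+/- and 6.18 in AdNTF3-Tg, and was thus highest in AdNTF3-Tg. The remaining 3 members were lowest in AdNTF3-Tg, as *Lepr* was. These were *Lep* (10, 15, 19 and 3 reads in that order), *Adipoq* and *Cidec*. *Adipoq* had 14.03 and 7.56 FPKM in WT, 9 in the library labelled TRKC+/- and 6.92 in AdNTF3-Tg, and *Cidec*, a lipid droplet protein gene, had 14.99, 11.61, 10.94 and 9.1 FPKM in that order. The median log2 FPKM ratio of the 6 adipocyte markers was -0.23 in the library labelled TRKC+/- and -0.48 in AdNTF3-Tg. The endothelial list lay between 24.4 and 28.5 FPKM with AdNTF3-Tg lowest, the macrophage list between 59.4 and 81.4 FPKM with AdNTF3-Tg lowest, and the fibroblast list between 187.8 and 251.6 FPKM with WT library 2 lowest. The sympathetic neuron list was lowest in AdNTF3-Tg as well, at 8405 FPKM against 8913 and 8700 in WT and 9048 in the library labelled TRKC+/-, and within it *Npy*, a neuropeptide gene, had an edgeR log2 fold change of -0.28 in AdNTF3-Tg (unadjusted p = 0.0059, adjusted p = 0.817). The glial list summed to 740.6 and 556.3 FPKM in WT, 704.8 in the library labelled TRKC+/- and 665.4 in AdNTF3-Tg. The skeletal muscle list summed to 63.95 and 2.8 FPKM in WT libraries 1 and 2, 32.05 in the library labelled TRKC+/- and 23.21 in AdNTF3-Tg. The part of these cells in the *Lepr* values was not tested. *Lepr* counts were not whole in any library, so part of its reads had been shared out with other genes.

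**Figure D1:**
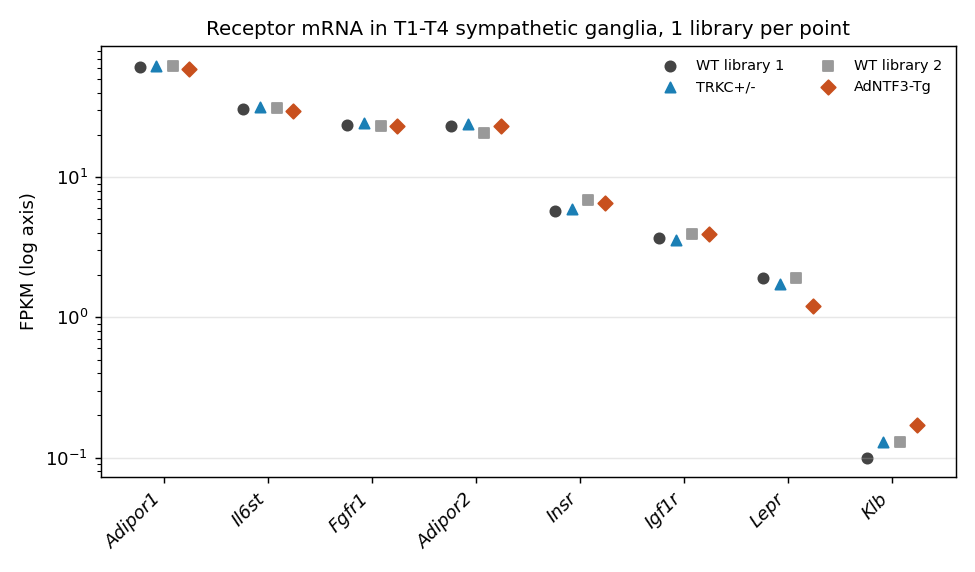
FPKM on a log axis of the 8 listed receptor genes, 1 point per library, in order of their mean. The points of *Adipor1* to *Igf1r* nearly coincide, while *Lepr* has its AdNTF3-Tg point at 1.21 FPKM below the other libraries at 1.74 to 1.91. Apart from *Klb*, *Lepr* also had the fewest reads.

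The adiponectin receptors were among the best expressed. *Adipor1* (chromosome 1, 136311955 to 136329928) was the highest of all 8 receptors, with 60.91 FPKM in WT library 1, 62.56 in WT library 2, 62.64 for the library labelled TRKC+/- and 59.29 in AdNTF3-Tg, or 61.7 ± 1.17 FPKM in WT (SD, n = 2). That mean level exceeded 91.0% of genes. For *Adipor2* (chromosome 6, 119303168 to 119367501) the FPKM values were, in that order, 23.35, 20.77, 23.78 and 23.21, lowest in WT library 2. Both mutant libraries therefore lay on WT library 1 and above WT library 2: the counting interval of the ratio over WT library 2 was 0.05 to 0.34 for the library labelled TRKC+/- and 0.01 to 0.31 for AdNTF3-Tg, and the WT libraries themselves differed by 0.18 (0.03 to 0.32). The edgeR log2 fold changes of *Adipor1* were 0.02 (SE 0.0947) in the library labelled TRKC+/- and -0.06 (SE 0.0953) in AdNTF3-Tg, and those of *Adipor2* 0.11 (SE 0.112) and 0.08 (SE 0.113).

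The insulin receptor *Insr* (chromosome 8, 3150922 to 3279617) had 461 reads (5.70 FPKM) in WT library 1, 563 reads (6.84 FPKM) in WT library 2, 495 reads (5.97 FPKM) in the library labelled TRKC+/- and 536 reads (6.54 FPKM) in AdNTF3-Tg. Both mutants lay inside the WT range, and the widest gap was that between the WT libraries, at -0.26 (counting interval -0.44 to -0.08) for library 1 over library 2. *Igf1r* (chromosome 7, 75097713 to 75371484) lay lower, at 3.71, 3.92, 3.57 and 3.94 FPKM in the same order, and every counting interval between its libraries included 0. *Insr* exceeded *Igf1r* by a factor of 1.65 in mean FPKM, with ranges that did not overlap. Reads of both genes were whole in every library, so none was split between these paralogs. The third gene of that family, *Insrr*, was above both, at between 10.98 and 12.64 FPKM. The edgeR log2 fold changes were -0.07 (95% interval -0.41 to 0.27) and 0.07 (-0.27 to 0.40) for *Insr* in the library labelled TRKC+/- and in AdNTF3-Tg, and -0.10 (-0.40 to 0.20) and 0.05 (-0.25 to 0.35) for *Igf1r*. The sign for *Insr* turned with the WT library used: it was 0.07 in the library labelled TRKC+/- against WT library 1 alone and -0.07 in AdNTF3-Tg against WT library 2 alone.

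*Il6st* (chromosome 13, 113265216 to 113297068), the gp130 gene, was the second highest receptor at 30.51, 31.24, 31.59 and 29.72 FPKM in WT library 1, WT library 2, the library labelled TRKC+/- and AdNTF3-Tg. *Fgfr1* (chromosome 8, 26624126 to 26686186) followed at 23.63, 23.10, 24.27 and 23.02 FPKM. Each had at least 996 reads in every library, and their highest value exceeded the lowest by a factor of 1.06 and 1.05. The edgeR 95% intervals of the log2 fold change were -0.17 to 0.23 and -0.26 to 0.15 for *Il6st* in the library labelled TRKC+/- and in AdNTF3-Tg, and -0.17 to 0.27 and -0.24 to 0.20 for *Fgfr1*. That these genes missed the threshold does not show that the libraries were equal.

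*Klb* (chromosome 5, 65739625 to 65775242), which β-Klotho-dependent FGF21 signalling needs, had 3 reads in WT library 1, 4 in WT library 2, 4 for the library labelled TRKC+/- and 5 in AdNTF3-Tg, or between 0.10 and 0.17 FPKM. This was at or just above 3 reads, taken as the least that this depth can show, and the gene was left out of the fit by the filter on low counts. No fold is given. Its mean level was above that of 2.19% of genes, and *Fgfr1*, its partner receptor, stood far higher in each library. The other Klotho gene, *Kl*, had 2 reads in WT library 1, 1 read in the library labelled TRKC+/- and no row elsewhere. Of the other FGF receptors, *Fgfr3* lay between 1.80 and 2.34 FPKM, *Fgfr2* between 0.19 and 0.38 FPKM and *Fgfr4* between 0.11 and 0.30 FPKM.

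In order of mean FPKM the receptors ran *Adipor1*, *Il6st*, *Fgfr1*, *Adipor2*, *Insr*, *Igf1r*, *Lepr* and *Klb*. Each neighbour in that order was apart in every library from the next except *Fgfr1* and *Adipor2*, whose ranges over the 4 libraries overlapped. Of the ErbB family, where *Erbb4* had no row, *Erbb3* had between 18.47 and 21.01 FPKM, *Erbb2* between 3.87 and 4.35 FPKM and *Egfr* between 0.85 and 1.40 FPKM. A gene with no row in a table had no read count there, and whether *Erbb4* was in the authors' gene set is not known. Among the 3 listed members *Erbb3*, a neuregulin receptor typical of glia, was thus the highest.

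**Figure D2:**
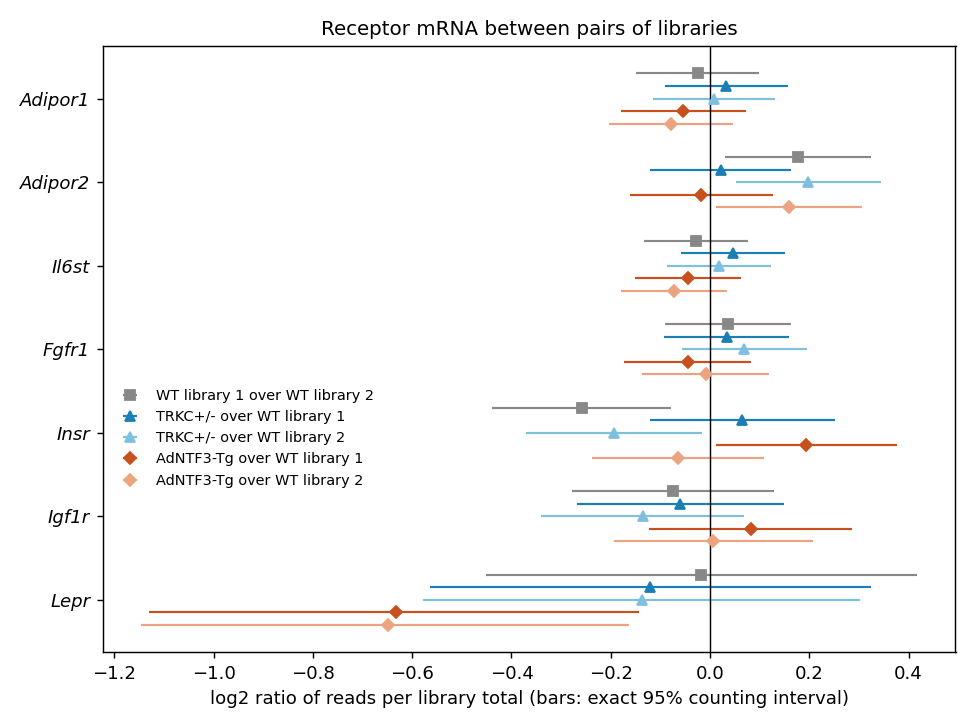
Log2 ratio of reads per library total between pairs of libraries for the 7 receptors with at least 50 reads in every library, with exact 95% counting intervals as bars. *Lepr* is the only one of them whose AdNTF3-Tg intervals lie wholly below 0 against both WT libraries, and *Insr* and *Adipor2* differ between the WT libraries (grey squares).

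Across the 7 receptors that were fitted, 0 passed edgeR's test in any of the 3 comparisons. At an unadjusted p under 0.05 there was 1 in AdNTF3-Tg against WT (*Lepr*) and 0 in each of the others, and DESeq2 and limma called 0 of them as well. The unadjusted p of *Lepr* in AdNTF3-Tg was 0.265 with DESeq2 and 0.0715 with limma. Over all 14156 genes edgeR called 1 gene in the library labelled TRKC+/- (0.00706%), 0 in AdNTF3-Tg (0%) and 1 in AdNTF3-Tg against the library labelled TRKC+/- (0.00706%), while 273, 832 and 663 genes had an unadjusted p under 0.05 (1.93%, 5.88% and 4.68%). DESeq2 called 2, 0 and 1 genes in these comparisons, and limma 0 in each. The receptors' median log2 fold change was 0.02 in the library labelled TRKC+/- and -0.02 in AdNTF3-Tg, beside 0.00 over all genes in both. The counting interval excluded 0 against both WT libraries for 1 receptor in AdNTF3-Tg, *Lepr*, where 5.31% of all genes were lower and 4.84% higher by that measure, and for 0 in the library labelled TRKC+/- (2.12% lower and 2.34% higher). Both mutant comparisons share their WT libraries.

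The genes closest to *Lepr* in pattern over the 4 libraries were *Ccdc134*, *Ttc30a1* and *Sla2*, at a root mean square difference of 0.0152, 0.0211 and 0.0247 in centred log2 CPM, out of 10964 genes compared. *Ccdc134* had 115 and 119 reads in WT, 111 in the library labelled TRKC+/- and 75 in AdNTF3-Tg. With only 4 libraries such likeness is easily met: 80 genes lay within 0.1 of *Lepr*. For *Insr*, the receptor with the next widest range, *H2ax*, *Arih2* and *Gng2* were closest, and 2657 genes lay within 0.1.

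The hormones and growth factors themselves were read from 21 ligand genes, of which 15 were listed in all libraries, 3 in some and 3 (*Ins1*, *Ins2* and *Fgf21*) in none. *Fgf1*, a ligand of all FGF receptors, was the highest by far, with between 75.16 and 80.61 FPKM. *Nrg1* had between 9.20 and 10.16 FPKM, *Adipoq* between 6.92 and 14.03 FPKM, and *Cntf*, a Schwann cell cytokine that signals through gp130, had between 6.69 and 9.24 FPKM. Of the fat hormone genes, *Adipoq* had 144 reads in WT library 1, 78 in WT library 2, 94 for the library labelled TRKC+/- and 71 in AdNTF3-Tg, and *Lep* had 10, 15, 19 and 3 reads in that order. *Adipoq* was highest in WT library 1, as was the brown fat neuregulin *Nrg4* with 54 reads against 32, 35 and 31. *Nrg3* had between 4.67 and 6.47 FPKM. The other listed ligand genes were low in every library, with 25 to 40 reads for *Igf2*, 12 to 18 for *Fgf15*, 11 to 17 for *Fgf2* and 7 to 9 for *Clcf1*, while *Il6*, *Osm* and *Il11* had at most 7 reads and no row in some tables. None of the 14 ligand genes that were fitted passed edgeR's test in any comparison.

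In AdNTF3-Tg, 3 ligand genes were past 0.5 on the log2 FPKM ratio above both WT libraries and 2 were past it below both, where 2.12% and 3.58% of all genes were. The former were *Nrg2*, *Igf1* and *Ctf1*, and the latter *Lep* and *Lif*. *Nrg2*, a neuregulin gene, had 41 reads in WT library 1, 56 in WT library 2, 63 for the library labelled TRKC+/- and 83 in AdNTF3-Tg. AdNTF3-Tg was the highest, with counting intervals of 0.44 to 1.57 and 0.07 to 1.09 over the WT libraries and an edgeR log2 fold change of 0.77 (SE 0.302, unadjusted p = 0.0342, edgeR adjusted p = 0.817). *Lep* was at 3 reads in AdNTF3-Tg, the limit of this depth, and its counting interval was -4.26 to 0.20 over WT library 1 and -4.75 to -0.49 over WT library 2 (edgeR unadjusted p = 0.0405, adjusted p = 0.817). *Igf1* had 38, 40, 51 and 58 reads in WT library 1, WT library 2, the library labelled TRKC+/- and AdNTF3-Tg, and its FPKM of 1.02, 0.64, 1.25 and 1.59 moved more than its reads because the length assigned to it differed between tables. *Ctf1* and *Lif*, both gp130 cytokine genes, rest on few reads: *Ctf1* had 4 and 7 in WT, 8 in the library labelled TRKC+/- and 11 in AdNTF3-Tg, and *Lif* had 17, 20, 15 and 9 in that order. The intervals of *Igf1*, *Ctf1* and *Lif* included 0 against both WT libraries. In the library labelled TRKC+/- 0 ligand genes were past 0.5 against both.

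**Figure D3:**
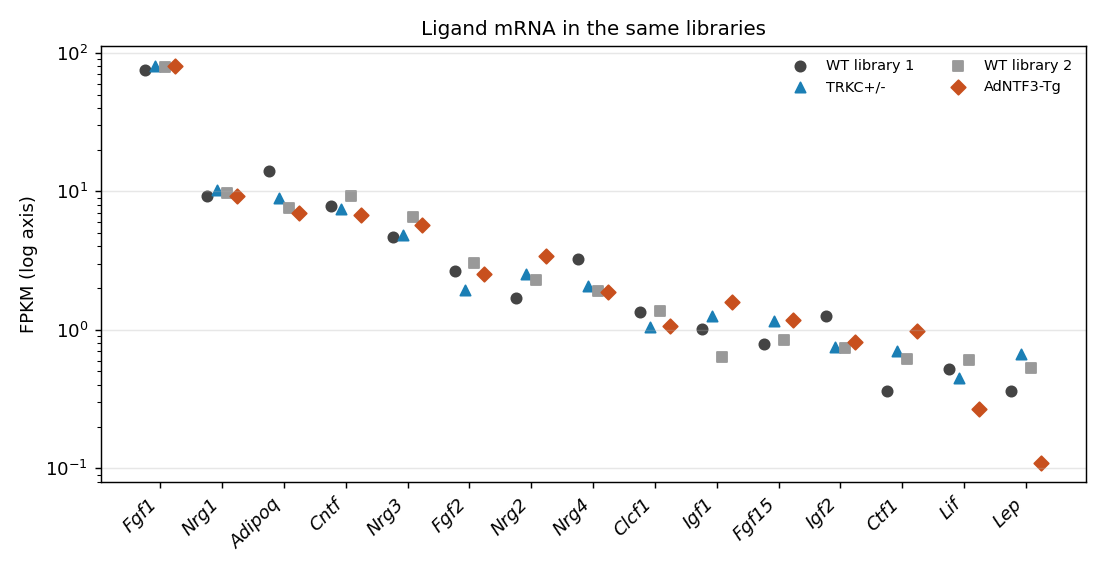
FPKM on a log axis of the 15 ligand genes listed in all libraries, 1 point per library. *Fgf1* stands above the rest at 75.16 to 80.61 FPKM, and *Lep* is lowest in AdNTF3-Tg at 0.11 FPKM (3 reads).

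Partner chains of the receptors differed widely in level. Among those that pair with gp130, *Cntfr* had between 31.38 and 42.64 FPKM, *Lifr* between 12.91 and 16.13 FPKM and *Il11ra1* between 28.42 and 35.34 FPKM, whereas *Il6ra*, the chain that binds IL-6, had between 0.49 and 0.90 FPKM (14 to 26 reads). *Il6* itself had at most 3 reads. *Cdh13*, a cadherin that binds adiponectin, had between 1.46 and 1.83 FPKM, far under *Adipor1*. *Leprot*, a gene next to *Lepr* whose product affects leptin receptor traffic, had 297, 297, 289 and 265 reads in WT library 1, WT library 2, the library labelled TRKC+/- and AdNTF3-Tg. Its log2 FPKM ratio in AdNTF3-Tg was -0.17 and -0.16 against the WT libraries, smaller than that of *Lepr*. *Igf2r*, which clears IGF-2, had 1015 and 1027 reads in WT, 1082 in the library labelled TRKC+/- and 987 in AdNTF3-Tg, and *Ghr*, the growth hormone receptor, had 111, 107, 104 and 110 in that order. *Osmr*, the oncostatin M receptor, had 93 and 159 reads in WT libraries 1 and 2, 128 in the library labelled TRKC+/- and 87 in AdNTF3-Tg, so the WT libraries spanned most of its range. Of the 19 genes of this list that were fitted, 0 passed edgeR's test in each comparison, and 0 were past 0.5 against both WT libraries in either mutant.

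Among 15 JAK-STAT genes, 0 passed edgeR's test, and 1 was past 0.5 against both WT libraries in AdNTF3-Tg, where 5.7% of all genes were, and 0 in the library labelled TRKC+/-. The gene was *Cish*, an inhibitor of cytokine signalling. Most genes named in this and the following lists were picked for lying farthest on the same side of both WT libraries. Their unadjusted p-values, from the same libraries, therefore add no support. *Cish* had 111 reads in WT library 1, 94 in WT library 2, 77 for the library labelled TRKC+/- and 65 in AdNTF3-Tg. It was below both WT libraries in both mutants, with an edgeR log2 fold change of -0.66 (SE 0.26, unadjusted p = 0.0362, edgeR adjusted p = 0.817) in AdNTF3-Tg and -0.44 (SE 0.254) in the library labelled TRKC+/-. *Jak2*, the kinase on the leptin receptor, had 255, 266, 231 and 332 reads in the same order. It was highest in AdNTF3-Tg and lowest in the library labelled TRKC+/-, at log2 fold changes of 0.35 (SE 0.142) and -0.20 (SE 0.149), and 0.55 (SE 0.168, unadjusted p = 0.0121, edgeR adjusted p = 0.940) between these libraries. *Ptpn2*, a phosphatase that acts on JAK and STAT proteins, had 321 and 267 reads in WT, 241 in the library labelled TRKC+/- and 258 in AdNTF3-Tg, by reads below both WT libraries in each mutant. *Stat5a* was lowest in AdNTF3-Tg, with 75.74 reads against 98.8 and 91.78 in WT. *Stat3* had 2270, 2456, 2426 and 2332 reads, in WT libraries 1 and 2, the library labelled TRKC+/- and AdNTF3-Tg, with both mutants inside the WT range. *Socs3*, a target of STAT3 and inhibitor of leptin and gp130 receptors, had 110, 183, 135 and 96 reads, where the WT libraries again differed more than AdNTF3-Tg did from WT library 1.

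Of the insulin and IGF-1 signalling genes, 26 of 27 were fitted and 0 passed edgeR's test. *Irs2*, an insulin receptor substrate, had 280 and 261 reads in the WT libraries and 333 in each mutant library, a log2 fold change of 0.28 (SE 0.142) in the library labelled TRKC+/- and 0.30 (SE 0.142) in AdNTF3-Tg. *Grb14*, an inhibitor of the insulin receptor, was lowest in AdNTF3-Tg with 199 reads against 304 and 243 in the WT libraries and 273 in the library labelled TRKC+/- (-0.46, SE 0.187, unadjusted p = 0.0398, edgeR adjusted p = 0.817). *Rptor*, a part of mTOR complex 1, had 676 and 688 reads in WT and 708 and 800 in the library labelled TRKC+/- and in AdNTF3-Tg. *Enpp1*, a further inhibitor, had 98 and 82 reads in WT, 63 in the library labelled TRKC+/- and 97 in AdNTF3-Tg. The PI3K subunit gene *Pik3cb* was lowest in the library labelled TRKC+/-, with 144.37 reads against 166.55 and 176.46 in WT. The list's median log2 fold change was 0.03 in the library labelled TRKC+/- and 0.07 in AdNTF3-Tg.

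Among IGF binding proteins, which hold IGFs outside cells, levels differed widely. *Igfbp7* had between 122.9 and 148.0 FPKM and *Igfbp4* between 91.6 and 113.0 FPKM, whereas *Igfbp3* had between 2.27 and 3.56 FPKM, *Igfals* had at most 6 reads, *Igfbp1* had 1 read in 1 library and *Igfbp2* had no row. Of 8 such genes 5 were fitted and 0 passed edgeR's test. *Igfbp4* had 1964 reads in WT library 1, 1670 in WT library 2, 2023 for the library labelled TRKC+/- and 1616 in AdNTF3-Tg, and *Igfbp5* had 1621, 1397, 1726 and 1353 in that order. AdNTF3-Tg and WT library 2 were alike in being low and the other libraries high. *Igfbp3* had 52, 48, 56 and 75 reads, highest in AdNTF3-Tg, at a log2 fold change of 0.58 (SE 0.284, edgeR adjusted p = 0.817).

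The 13 adiponectin receptor and AMPK genes were all fitted and 0 passed edgeR's test or the 0.5 cutoff against both WT libraries. *Appl1*, the adaptor on the adiponectin receptors, had 719 and 839 reads in the WT libraries, 706 in the library labelled TRKC+/- and 841 in AdNTF3-Tg. *Appl2*, its relative, had 280 and 281 reads in WT, 280 in the library labelled TRKC+/- and 246 in AdNTF3-Tg. *Prkaa2*, a catalytic subunit of AMPK, had 467, 456, 500 and 527 reads in that order. *Prkag2*, a regulatory subunit, had 961 and 920 reads in WT, 944 in the library labelled TRKC+/- and 860 in AdNTF3-Tg, and *Sirt1*, a deacetylase linked to AMPK, had 117, 129, 109 and 129. Of the 16 FGF and ErbB signalling genes 0 passed either. *Frs2*, the docking protein of FGF receptors, had 435 and 441 reads in WT, 528 in the library labelled TRKC+/- and 557 in AdNTF3-Tg. Both mutants were above both WT libraries, at log2 fold changes of 0.25 (SE 0.118) and 0.35 (SE 0.118, unadjusted p = 0.0194, edgeR adjusted p = 0.817). *Spry4*, an inhibitor that FGF signalling induces, had 411 and 447 reads in WT, 483 in the library labelled TRKC+/- and 367 in AdNTF3-Tg. *Spry1*, its relative, had 96 and 79 reads in WT and 75 and 69 in these libraries. *Frs3* (194 and 155 reads in WT, 217 and 203 in the mutants) and *Adam17*, a protease that sheds ErbB ligands (263 and 277, then 304 and 279), were above both WT libraries in each mutant.

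**Figure D4:**
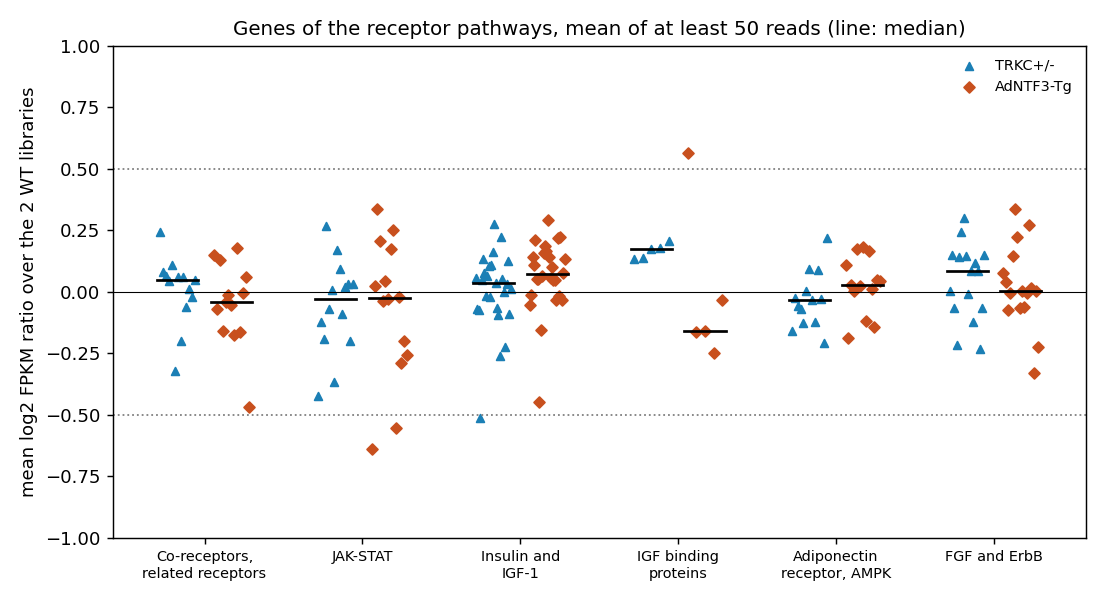
Log2 FPKM ratio of each mutant library, averaged over the WT libraries, for pathway genes averaging 50 reads or more; each point is 1 gene, black lines are medians of a list and dotted lines mark 0.5. Most points lie between the dotted lines, and *Cish* in AdNTF3-Tg, with 65 reads against 111 and 94 in WT, is the gene farthest below 0.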

How the data were processed

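RNA-seq of T1–T4 sympathetic ganglia was measured in 4 libraries. By the study's methods, the authors isolated mRNA on oligo(dT) beads, removed adaptors and poor reads with SOAPnuke and aligned to mm9 with HISAT2, whereas the submitters' processing notes name RSEM and mm10. Coordinates and *Lepr* sequences are those of GENCODE on NCBIM37 (mm9). The authors deposited an expected count per gene, not normalized. They also deposited an FPKM value (RPKM in the methods) and a length. Strand was not stated. Depth was 8665955 to 8894985 reads per library, and between 92.6% and 93.7% of expected counts were whole. Symbols came from a RefSeq table on GRCm38.p6 used for names, which matched 99.7% of the Entrez identifiers.

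Expected counts, rounded, were fitted with edgeR (v4.0.16; TMM, filterByExpr, quasi-likelihood) over 3 groups, leaving 1 residual degree of freedom, from the 2 WT libraries. Their spread includes any cohort difference. p-values were adjusted by Benjamini-Hochberg, with a threshold of 0.05. A standard error is the fold change divided by the root of F, and its 95% interval uses the fit's total degrees of freedom. Fold ratios of FPKM carried a pseudocount of 0.1. Counting intervals are exact Clopper-Pearson intervals of the share of reads of 1 library, converted to log2 ratios; these, like the 3-read floor, reflect counting error alone. p-values measure only the spread between pools. In the edgeR fit this spread was taken mostly from other genes, with 6.79 prior degrees of freedom beside the 1 residual degree of freedom. DESeq2 (v1.42.0), limma (v3.58.1) and the other alternatives are given in the closing section. Scripts were tested on simulated data.

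Members and gene lists were chosen with earlier results of these data known. Genes named are the receptors, all ligands by count or value, and from each other list, per mutant, the 3 genes averaging 50 reads or more that lay farthest on the same side of both WT libraries. *Stat3*, *Socs3*, *Kl*, *Egfr*, *Erbb2*, *Erbb3*, *Fgfr2*, *Fgfr3*, *Fgfr4*, *Cntfr*, *Lifr*, *Il6ra*, *Cdh13*, *Igfals*, *Igfbp1*, *Igfbp2* and the marker genes other than *Ucp1*, which was called, were named after their values were seen.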

Additional observations from a re-analysis of the deposited data

How the results depend on the processing

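Adjusted p-values of the 7 fitted receptors lay between 0.728 and 1 over 3 comparisons and 6 fits, so none passed under any tool, scaling or filter tried. Of 175 alternative values of receptor fold changes 4 took the opposite sign, each with 1 WT library left out: *Insr* was 0.07 in the library labelled TRKC+/- without WT library 2 and -0.07 in AdNTF3-Tg without WT library 1, *Adipor1* was -0.0037 in the library labelled TRKC+/- without WT library 1, and *Adipor2* was -0.00033 in AdNTF3-Tg without WT library 2. A shift larger than the spread between the WT libraries, which is narrow for this gene, was seen for *Lepr* with a pseudocount of 1 on FPKM, at -0.087 in the library labelled TRKC+/-, -0.40 in AdNTF3-Tg and -0.31 between these libraries. With 1 WT library left out, *Lepr* in AdNTF3-Tg was between -0.64 and -0.60, the latter without WT library 2 and also a shift beyond that spread, without a test since no residual degrees of freedom remain, and for the same reason the counts of called genes were not recomputed without a WT library. The adjusted p of *Lepr* in AdNTF3-Tg ranged from 0.728 to 1.00 over the fits. The receptors past the cutoff in AdNTF3-Tg went from 1 to 0 against each WT library with a pseudocount of 1 and with a cutoff of 1. With a pseudocount of 0.01 the number was 2 over WT library 1, where *Klb* (3 and 5 reads) joined, and 1 over the library labelled TRKC+/- (*Lepr*), where it had been 0. Genes called in the library labelled TRKC+/- were 2 with DESeq2's size factors, with a mean of at least 50 expected counts and with DESeq2, and 0 without a filter or with limma. Between the mutant libraries the count was 0 without a filter and with limma. The cause of these moves was not tested. No paired analysis was made, because the sample labels do not say which WT library is the control of which mutant cohort, and each mutant group is 1 library. Depth limits *Klb* and *Kl*, which had at most 5 reads, and *Lep* in AdNTF3-Tg, with 3.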
